A study of Mus musculus with 12 samples.

Results

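The genes described here encode the collagens, the laminins, the nidogens, the fibrillins, fibronectin, tenascin C and periostin, the structural proteins of the extracellular matrix, measured in mouse kidney. They were taken by the gene name in the scanner files: 62 genes with 142 probes matched, and 57 of them had a probe well above background on at least 3 of 12 arrays, of 25947 genes that passed that filter in all. The 5 others were Col6a6, Col9a1, Col9a3, Col10a1 and Col28a1. The samples were whole kidneys of male mice on a C57 background in 4 groups of 3: wild-type (WT) and Jaml knockout (KO) mice, each after a sham operation or killed 24 h after renal ischemia-reperfusion injury (IRI). The product of Jaml is an immunoglobulin-domain adhesion protein of the cell surface. IRI closes the renal vessels for a time and then lets blood back in, and the series text gives 40 min of clamping where the protocol text gives 30 min of ligation. The labels give no age, name no promoter or Cre line, and do not say which part of Jaml was deleted. The design text speaks of 3 independent samples per group; each array was counted as 1 replicate, and p-values measure only the spread between these samples.

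Collagens are built from 3 chains wound into a helix. Fibrillar collagens, chiefly types I, III and V, form the cables of the interstitium and are made mostly by fibroblasts. Type IV collagen and the laminins form the sheet-like basement membranes under tubules, around capillaries and in the glomerular filter. In the mature glomerular membrane the chains of Col4a3, Col4a4 and Col4a5 take the place of those of Col4a1 and Col4a2, and laminin is assembled from the chains of Lama5, Lamb2 and Lamc1. Nidogens link the laminin and collagen networks. Fibronectin, tenascin C and periostin are glycoproteins known to be made during wound repair.

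The type IV collagen genes lie in head-to-head pairs, and their starts are shown because Col4a1 and Col4a2 both rose after IRI in WT while none of the genes of the other pairs passed. In the RefSeq tables for GRCm38.p6, Col4a1 (minus strand) and Col4a2 (plus strand) on chromosome 8 overlap by 85 bases, and Col4a4 and Col4a3 on chromosome 1 overlap by 114 bases. Col4a6 and Col4a5 on chromosome X are instead 1274 bases apart. The first line gives the plus strand at chr8:11312801-11312830, with the 22 bases from the listed start of Col4a2 to the listed start of Col4a1 in capitals. The other lines give the 100 bases upstream of each gene of the X pair, 5′ to 3′ on the strand of the gene, at chrX:141474096-141474195 (minus strand) and chrX:141475270-141475369 (plus strand). No letter is marked in them.
Col4a1/Col4a2: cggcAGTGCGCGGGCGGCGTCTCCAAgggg
Col4a6: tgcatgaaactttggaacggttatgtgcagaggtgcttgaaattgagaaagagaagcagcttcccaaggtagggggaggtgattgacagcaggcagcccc
Col4a5: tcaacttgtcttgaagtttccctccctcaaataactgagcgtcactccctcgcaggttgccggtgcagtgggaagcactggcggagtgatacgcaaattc
Of these letters, 80.0% were G or C in the 30 bases around the listed starts of Col4a1 and Col4a2. In the 100 bases upstream, 51.0% were for Col4a6 and 53.0% for Col4a5. The stretches differ in length and position, since the 30 bases lie mostly where Col4a1 and Col4a2 overlap.

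Each level below is the log2 processed signal of the brightest kept probe of a gene minus the 75th percentile of its array, so a level of 0 is the brightness of that percentile. Each difference is a log2 fold change with its standard error (SE) from limma's fit over all 12 arrays, with n = 3 per group, and an adjusted p is Benjamini-Hochberg adjusted over all 25947 genes, with a threshold of 0.05. Between 62.9% and 68.1% of probes were well above background per array, and no probe of a member was saturated. All 6 WT arrays were on one slide and all 6 KO arrays on another, with scan times split the same way, so genotype cannot be told apart from slide and scan. WT IRI replicate 1 stood apart: over all genes its levels lay 0.58 (root mean square) from the mean of its group, against 0.21 to 0.43 for the other 11 arrays. The Jaml probe lay at -0.26, -0.26 and -0.44 in WT sham, 0.55, -1.80 and -1.64 in WT IRI, -3.54, -2.59 and -3.18 in KO sham, and -1.89, -2.70 and -3.0 in KO IRI. Its KO level was below that of WT by 2.79 ± 0.55 in sham (adjusted p = 0.0152) and by 1.57 ± 0.55 in IRI, where it did not pass (adjusted p = 0.153).

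After IRI in WT mice, the genes of the widespread type IV collagen, some laminin chains, Col8a1, Col12a1, Col13a1 and the glycoprotein Postn were higher, and none of the fibrillar collagens passed the test. Of the 57 genes, 9 rose and 2 fell, against 12.0% of all genes tested that passed, 6.08% higher and 5.90% lower. Sham and IRI did not overlap for 18 genes, 11 higher and 7 lower, against 32.3% of all genes, 17.2% higher and 15.1% lower. By class, 6 of 19 basement membrane genes passed (5 higher, 1 lower), 2 of 7 FACIT collagens (collagens that sit on the surface of fibrils; 1 higher, 1 lower), 1 of 7 beaded filament and short chain collagens, 1 of 4 transmembrane collagens, 1 of 5 glycoproteins, 0 of 3 collagens of the basement membrane zone and 0 of 11 fibrillar collagens. At an unadjusted p below 0.05, 4 of the 11 fibrillar genes passed, beside 29.1% of all genes. In KO mice 4 of the 57 genes passed, 3 higher and 1 lower, against 6.16% of all genes, 2.10% higher and 4.05% lower (546 and 1052 genes, beside 805 and 819 by quantile normalization). These were Col4a2, Col12a1, Col13a1 and Lama3, each of which also passed in WT in the same direction. The groups did not overlap for 19 genes in KO, 9 higher and 10 lower, against 35.7% of all genes, 13.9% higher and 21.8% lower. The 2 responses use different animals, and 43 of the 57 genes differed in the same direction in both, 22 higher and 21 lower. The same count was not made over all genes, so nothing particular to these genes can be read from it. The median difference over the 57 genes was 0.10 in WT and -0.10 in KO, against -0.01 and -0.08 over all genes tested.

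**Figure D1:**
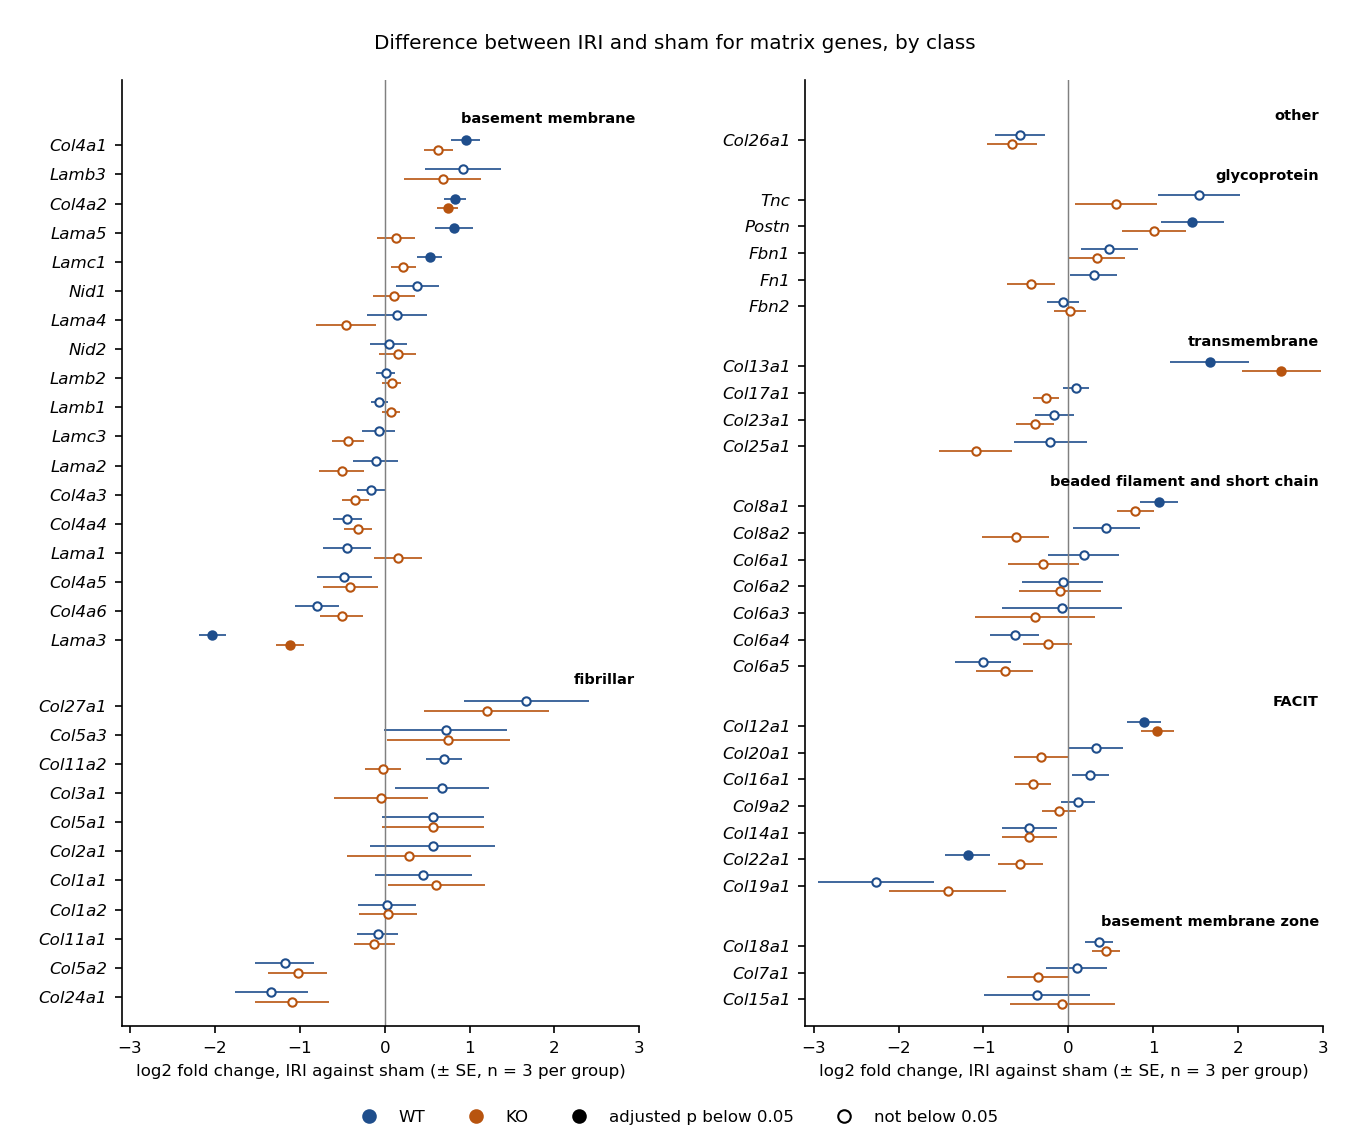
The log2 fold change of IRI against sham (x axis, ± SE, n = 3 per group) of each of the 57 genes but 1 (y axis, sorted by the WT value within a class), in WT (blue) and KO (orange), with filled points where the adjusted p was below 0.05. The fibrillar class has no filled point and long error bars, while filled points in the basement membrane class lie on both sides of 0, with Lama3 lowest at -2.03 in WT.

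Col4a1 and Col4a2 encode the chains of the type IV collagen found in nearly all basement membranes. Col4a1 lay at 3.45, 3.48 and 3.62 in WT sham and at 4.83, 4.22 and 4.37 in WT IRI, and at 3.33, 2.98 and 3.37 in KO sham and 3.77, 3.81 and 4.0 in KO IRI. Col4a2 lay at 2.25, 2.37 and 2.52 in WT sham and at 3.30, 3.06 and 3.25 in WT IRI, and at 2.34, 2.18 and 2.44 in KO sham and 2.98, 3.01 and 3.19 in KO IRI. Every IRI array was above every sham array of its genotype for both genes. Col4a1 rose by 0.96 ± 0.17 in WT (1.94-fold, adjusted p = 0.0104) and differed by 0.63 ± 0.17 in KO, where it did not pass (adjusted p = 0.0602). In KO it passed with each of the 4 other ways of correcting and scaling the arrays (adjusted p = 0.0206 to 0.0343). Of these, quantile normalization and the authors' log2 values were nearly alike (0.69 and 0.70). It also passed in KO when WT IRI replicate 1, which enters there only through the shared spread, was left out (adjusted p = 0.0146). Col4a2 rose by 0.83 ± 0.13 in WT (adjusted p = 0.00554) and by 0.74 ± 0.13 in KO (adjusted p = 0.0108). The WT rises of both passed with any 1 array left out. With only the 6 WT arrays in the fit they did not (adjusted p = 0.0726 for Col4a1 and 0.0593 for Col4a2). The probes lie at chr8:11199009-11199068 (Col4a1) and chr8:11448840-11448899 (Col4a2) in the mm9 coordinates of the files.

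The other type IV collagen genes, Col4a3 to Col4a6, were lower after IRI in both genotypes by their group means, and none passed. Col4a3 lay at -0.34, 0.03 and -0.20 in WT sham, -0.40, -0.60 and 0.01 in WT IRI, 0.40, 0.52 and 0.41 in KO sham and 0.09, 0.08 and 0.11 in KO IRI. Col4a4 lay at 2.77, 2.87 and 2.63 in WT sham, 1.93, 2.56 and 2.46 in WT IRI, 3.16, 3.09 and 3.15 in KO sham and 3.01, 2.71 and 2.73 in KO IRI. In KO all 4 genes had every IRI array below every sham array, which was so for 21.8% of all genes. The differences in KO ran from -0.51 ± 0.26 for Col4a6 (adjusted p = 0.294) to -0.32 ± 0.17 for Col4a4 (adjusted p = 0.32). In WT they ran from -0.80 ± 0.26 for Col4a6 (adjusted p = 0.0708) to -0.16 ± 0.16 for Col4a3 (adjusted p = 0.545), and the groups did not overlap for Col4a4 and Col4a6. WT IRI replicate 1 was the lowest of the 12 arrays for Col4a4, Col4a5 and Col4a6. The median difference of Col4a3 to Col4a6 was -0.46 in WT (-0.19 without WT IRI replicate 1) and -0.38 in KO, beside 0.89 and 0.69 for Col4a1 and Col4a2. These signs held with the 4 other ways of correcting and scaling the arrays. With array weights Col4a3 turned to 0.05 in WT (adjusted p = 0.813), and Col4a4 passed as lower in both genotypes (-0.33 in WT and -0.36 in KO, adjusted p = 0.0216 and 0.0236). In that setting 34.4% of all genes passed in WT and 22.2% in KO.

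Of the 11 laminin genes, 3 rose and 1 fell in WT, with a median of 0.01, and 1 fell in KO, with a median of 0.08. Lama5, the long alpha chain of mature kidney basement membranes, lay at 3.13, 3.23 and 3.25 in WT sham and 4.49, 3.61 and 3.96 in WT IRI, with 3.45, 3.49 and 3.43 in KO sham and 3.98, 3.45 and 3.35 in KO IRI. It rose by 0.82 ± 0.22 in WT (adjusted p = 0.0393), and in KO, where the groups overlapped, the difference was 0.13 ± 0.22 (adjusted p = 0.783). Lamc1, the gamma chain of most laminins, lay at 2.43, 2.34 and 2.29 in WT sham and 3.15, 2.70 and 2.79 in WT IRI, with 2.78, 2.45 and 2.76 in KO sham and 2.90, 3.01 and 2.74 in KO IRI. It rose by 0.53 ± 0.15 in WT (adjusted p = 0.0456), with 0.22 ± 0.15 in KO (adjusted p = 0.442), and its 3 other kept probes differed by 0.40 to 0.58 in WT. Lamb2, the beta chain of the glomerular laminin, lay between 0.46 and 0.68 in WT sham and between 0.51 and 0.63 in WT IRI, and its IRI values were 1.04, 0.78 and 0.87 in KO beside 0.71, 0.87 and 0.85 in sham. Its differences were 0.01 ± 0.11 in WT and 0.08 ± 0.11 in KO, with 95% intervals of -0.24 to 0.26 and -0.17 to 0.34. Lamb1, the beta chain that Lamb2 replaces in the mature glomerulus, differed by -0.06 ± 0.10 and 0.07 ± 0.10.

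Lama3 and Lamb3 encode chains of a laminin that anchors stratified and some glandular epithelia. Lama3 lay at 1.91, 1.74 and 1.85 in WT sham and at -0.33, 0.11 and -0.37 in WT IRI, and at 1.19, 0.87 and 0.96 in KO sham and -0.27, 0.10 and -0.14 in KO IRI. The groups stood far apart in both genotypes. It fell by 2.03 ± 0.16 on the log2 scale in WT (adjusted p = 0.000303) and by 1.11 ± 0.16 in KO (adjusted p = 0.00546), and both calls held with any 1 array left out. Its other kept probe differed by -1.99 in WT and -0.53 in KO. Lamb3 differed by 0.92 ± 0.45 in WT and 0.68 ± 0.45 in KO and passed in neither (adjusted p = 0.204 and 0.427). The response of Lama3 was less negative in KO than in WT by 0.92 ± 0.23, which did not pass the interaction test (adjusted p = 0.274), and Lama3 had a lower level in KO sham than in WT sham.

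**Figure D2:**
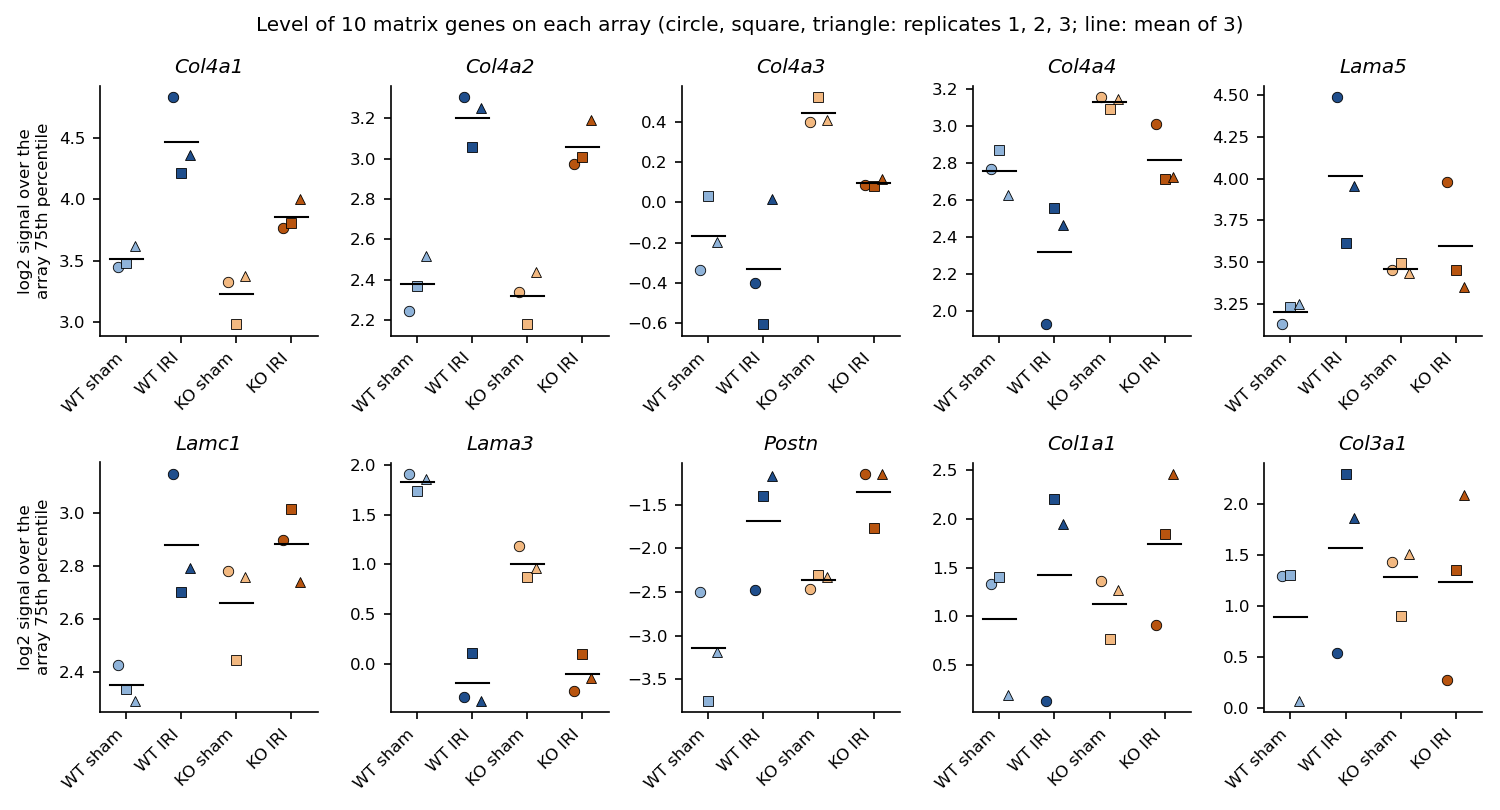
The log2 level of 10 genes over the 75th percentile of each array (y axis, own scale per gene) in the 4 groups (x axis), 1 point per array with the replicate number as the marker and a line at the mean of 3. Col4a1 and Col4a2 have every IRI array above every sham array of the same genotype and Lama3 every one below, while Col1a1 and Col3a1 overlap in both genotypes.

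None of the 11 fibrillar genes passed after IRI in either genotype, and the arrays of a group lay far apart for most of them. Col1a1, a chain of type I collagen, lay at 1.33, 1.40 and 0.19 in WT sham, 0.13, 2.21 and 1.94 in WT IRI, 1.36, 0.76 and 1.27 in KO sham and 0.91, 1.84 and 2.46 in KO IRI. Col1a2, its partner chain, lay at 3.34, 3.61 and 2.74 in WT sham, 2.73, 3.56 and 3.48 in WT IRI, 3.38, 3.21 and 3.52 in KO sham and 2.73, 3.52 and 3.97 in KO IRI. Col3a1, the chain of type III collagen, lay at 1.29, 1.30 and 0.07 in WT sham, 0.53, 2.30 and 1.86 in WT IRI, 1.43, 0.90 and 1.51 in KO sham and 0.28, 1.35 and 2.09 in KO IRI. In all 3 genes the lowest array of a group was WT sham replicate 3, WT IRI replicate 1, KO sham replicate 2 and KO IRI replicate 1. Col1a1 differed by 0.45 ± 0.57 in WT (95% interval -0.82 to 1.72) and 0.61 ± 0.57 in KO (-0.66 to 1.88), so a change of more than 3-fold is within the interval in both. Col3a1 differed by 0.68 ± 0.55 in WT and -0.04 ± 0.55 in KO, and its 2 other kept probes differed by 1.84 and 1.85 in WT and by 1.07 and 0.50 in KO. The mean of its probes gave 1.46 in WT (adjusted p = 0.0848). Col1a2 differed by 0.03 ± 0.34 and 0.04 ± 0.34, and the WT value changed sign under 2 of the 4 other ways of correcting and scaling. Its other kept probes differed by 0.28 and 0.79 in WT and by 0.54 and 0.69 in KO. Those of Col1a1 differed by 0.42 and 0.62 in WT and by 0.57 and 1.11 in KO.

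The class ran from Col24a1 to Col27a1 in both genotypes. Col27a1, a fibrillar collagen known from cartilage, differed by 1.67 ± 0.74 in WT and 1.20 ± 0.74 in KO (adjusted p of 0.163 and 0.388). Col24a1, which is not well above background on every array, differed by -1.34 ± 0.43 and -1.09 ± 0.43 (adjusted p = 0.0705 and 0.178). In KO IRI it was on no array well above background. With each KO IRI signal set no lower than the lowest signal counted as above background, the mean of Col24a1 was 1.78-fold below KO sham. That value takes no account of the spread between arrays, and the difference did not pass. Col5a2, a chain of type V collagen, differed by -1.18 ± 0.35 and -1.03 ± 0.35 (adjusted p = 0.0524 and 0.118). With WT IRI replicate 1 left out, Col5a2 passed as lower and Col27a1 as higher in both genotypes. Col5a3 then passed as higher in WT and Col24a1 as lower in KO. In that setting 3499 of all 25947 genes tested passed in WT and 3252 in KO, beside 3109 and 1598 with every array kept. WT IRI replicate 1 enters the KO comparison only through the shared spread, so the KO differences are unchanged.

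Set side by side, the fibrillar class had a median difference of 0.56 in WT and 0.04 in KO, and the basement membrane class 0.01 and 0.08. The KO fibrillar median is the value of the chosen Col1a2 probe, and the other kept probes of that gene were at 0.54 and 0.69. The fibrillar minus basement membrane median was thus 0.55 in WT and -0.05 in KO. The WT value was 1.09 without WT IRI replicate 1 and 0.13, 0.17 and 0.20 without WT sham replicate 3, WT IRI replicate 2 and WT IRI replicate 3. The KO value was 0.43 without KO IRI replicate 1 and 0.49 over the genes well above background on all 12 arrays. The basement membrane median stood between opposite changes: Lama3 was at -2.03 and Col4a1 at 0.96 in WT, and Lama3 was at -1.11 and Col4a2 at 0.74 in KO.

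On single arrays the mean centred level of the 11 fibrillar genes was -0.09, 0.03 and -0.50 in WT sham, -0.80, 0.57 and 0.43 in WT IRI, 0.07, -0.22 and 0.17 in KO sham and -0.30, 0.18 and 0.46 in KO IRI. The same mean over the 19 basement membrane genes stayed between -0.22 and 0.22 on the 12 arrays. Fibrillar levels overlapped between sham and IRI in both genotypes. On WT IRI replicate 1, 8 of 11 fibrillar genes were the lowest of their group, while Col4a1 and Col4a2 were at their highest there. The SD between arrays of a group, pooled over the 4 groups, had a median of 0.76 over the fibrillar genes (0.27 for Col11a2 to 1.01 for Col27a1) and 0.24 over the basement membrane genes (0.07 for Lamb1 to 0.61 for Lamb3), beside 0.27 over all genes tested. Without WT IRI replicate 1, a comparison added after the data were seen, the medians were 0.42 and 0.19.

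**Figure D3:**
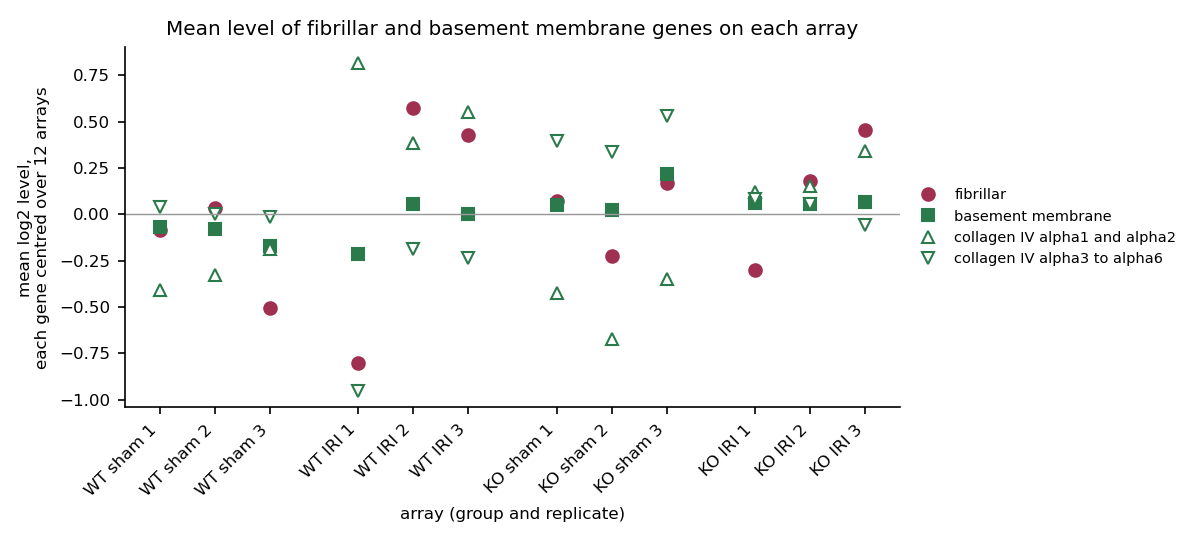
The mean log2 level of the genes of a class on each of 12 arrays (x axis), after each gene was centred on its mean over the arrays (y axis): 11 fibrillar genes (circles), 19 basement membrane genes (squares), Col4a1 with Col4a2 (triangles up) and Col4a3 to Col4a6 (triangles down). The circles run from -0.80 to 0.57 within WT IRI alone, while the squares stay between -0.22 and 0.22 on all arrays.

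**Figure D4:**
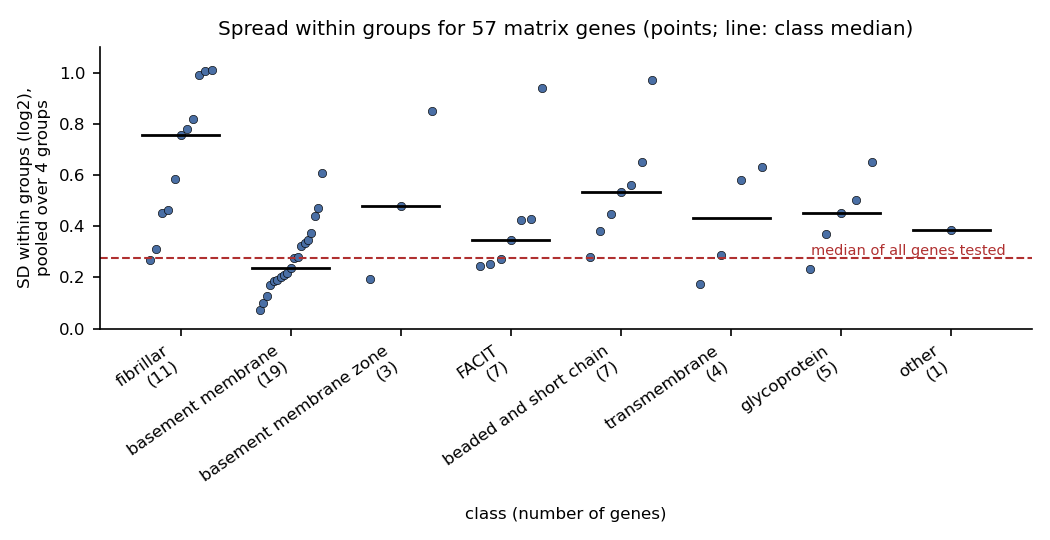
The SD of the log2 level between arrays of a group, pooled over the 4 groups (y axis), for each of the 57 genes (points) by class (x axis), with the class median as a line and the median over all genes tested as a dashed line. The fibrillar median of 0.76 lies above the dashed line at 0.27 and the basement membrane median of 0.24 below it.

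Signs of other cell types were examined beside these values, since in whole kidney a change in the number of cells of a type and in RNA per cell cannot be told apart. Of 9 fibroblast, pericyte and smooth muscle markers, none passed after IRI in either genotype. Pdgfrb, a receptor of pericytes and fibroblasts, differed by 0.91 ± 0.31 in WT (adjusted p = 0.0807). The mean centred level of the 9 lay between -0.35 and 0.05 in WT sham, no more than 0.03 from 0 in WT IRI, between -0.16 and 0.19 in KO sham and between -0.15 and 0.34 in KO IRI. It was lowest on replicate 3 in WT sham and on replicate 1 in KO IRI, where Col1a1 and Col3a1 were lowest too. In KO sham it was highest, at 0.19, on replicate 2, where those collagens were lowest, and the 3 WT IRI arrays were alike in it although WT IRI replicate 1 was lowest in those collagens. Defining markers of the kidney were present: all 4 proximal tubule, 3 thick limb and distal tubule, 3 collecting duct and 5 podocyte markers passed the filter. Of the proximal tubule markers, 4 fell in WT and 3 in KO. Of 4 markers of urothelium, the lining of the renal pelvis, 1 fell in WT (Upk3a, by 1.77 ± 0.46, adjusted p = 0.0331) and none in KO, with median differences of -1.29 and -0.64. Their list means were -0.58 to 1.06 in WT sham, -1.50 to -0.38 in WT IRI, 0.27 to 0.72 in KO sham and -0.61 to 0.74 in KO IRI. Of 7 adipocyte markers, 3 rose in WT and 1 in KO, with list means from -2.51 to -0.65 in WT sham, 0.60 to 2.49 in WT IRI, -1.05 to 1.16 in KO sham and -0.66 to 0.93 in KO IRI. The 3 erythrocyte markers rose in WT, where their mean went from between -1.40 and -0.69 to between 1.19 and 2.16. None of them passed in KO, with means of -1.02 to -0.22 in sham and -0.78 to 0.82 in IRI. Among 5 leukocyte markers, 1 rose and 3 fell in WT, and 1 rose in KO. Cd3g and Cd8b1, both T cell genes, were high on WT sham replicates 1 and 2 alone. Of 4 skeletal muscle markers, 1 rose in WT and none in KO. Of 5 endothelial and 5 podocyte markers, none passed after IRI in either genotype. The part of these cells in the changes of the matrix genes was not tested.

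Of the collagens outside these classes, Col12a1, a FACIT collagen of dense connective tissue, rose in both genotypes. It lay at -2.35, -2.75 and -2.95 in WT sham, -2.12, -1.66 and -1.59 in WT IRI, -2.53, -2.42 and -2.31 in KO sham and -1.45, -1.55 and -1.12 in KO IRI. The rises were 0.89 ± 0.20 in WT and 1.05 ± 0.20 in KO (adjusted p = 0.0201 and 0.0153), with no overlap of groups, but its other kept probe differed by 0.85 in WT and -0.37 in KO. With the mean of all kept probes its KO difference was 0.34 and did not pass (adjusted p = 0.450). Col22a1, a FACIT collagen of tissue junctions, lay at -5.37, -5.24 and -5.10 in WT sham and -6.53, -6.10 and -6.64 in WT IRI. It fell by 1.18 ± 0.26 (adjusted p = 0.0208) in WT, where not every array was well above background, and by normexp background correction the difference was -0.21 (adjusted p = 0.255). In KO it differed by -0.56 ± 0.26 (adjusted p = 0.26). Its other kept probe differed by -0.48 in WT and -0.17 in KO. Col19a1 had the lowest value of the 57 genes in both genotypes, -2.27 ± 0.69 in WT and -1.42 ± 0.69 in KO (adjusted p = 0.0579 and 0.272).

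Col13a1, a collagen that spans the cell membrane, had the largest rise in KO. It lay at -1.83, -1.85 and -0.96 in WT sham and 0.97, -1.01 and 0.41 in WT IRI, which overlap, and at -1.78, -2.53 and -1.81 in KO sham and 0.85, 0.28 and 0.28 in KO IRI, which do not. The rises were 1.67 ± 0.46 in WT (adjusted p = 0.0438) and 2.51 ± 0.46 in KO (5.69-fold, adjusted p = 0.0144). Of its 2 other kept probes, 1 differed by 1.43 and 2.19 and the other by 0.17 and 0.04, so the probes of this gene disagree in size. With their mean the differences were 1.09 and 1.58, and neither passed (adjusted p = 0.116 and 0.0544). Col8a1, a short chain collagen of vessel walls, lay at 1.05, 1.12 and 1.41 in WT sham, 1.99, 2.00 and 2.79 in WT IRI, 2.36, 1.90 and 2.26 in KO sham and 3.10, 2.89 and 2.89 in KO IRI. It rose by 1.07 ± 0.22 in WT (adjusted p = 0.0161), and the difference of 0.79 ± 0.22 in KO did not pass (adjusted p = 0.064). Col6a1, Col6a2 and Col6a3, the main chains of beaded type VI collagen, differed by -0.40 to 0.18 in the 2 genotypes, with SEs of 0.41 to 0.71. The lowest of their class was Col6a5, another type VI chain, at -1.0 ± 0.33 in WT and -0.75 ± 0.33 in KO. The lowest transmembrane collagen, Col25a1, differed by -0.21 ± 0.43 and -1.09 ± 0.43. Col18a1 and Col15a1, collagens of the basement membrane zone, differed by 0.36 ± 0.16 and -0.37 ± 0.62 in WT and by 0.44 ± 0.16 and -0.07 ± 0.62 in KO. None of these passed.

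Among the glycoproteins, Postn (periostin) rose in WT. It lay at -2.50, -3.75 and -3.18 in WT sham, -2.47, -1.40 and -1.18 in WT IRI, -2.46, -2.30 and -2.33 in KO sham and -1.15, -1.77 and -1.15 in KO IRI. WT IRI replicate 1 was close to WT sham replicate 1, and the groups just missed each other. The rise was 1.46 ± 0.37 (2.76-fold, adjusted p = 0.032) with 1.39 and 1.45 at its 2 other kept probes, and in KO the difference was 1.01 ± 0.37 (adjusted p = 0.152). Tnc (tenascin C) lay at -3.28, -3.76 and -4.25 in WT sham, -3.06, -1.79 and -1.83 in WT IRI, -3.88, -3.96 and -3.31 in KO sham and -3.50, -3.83 and -2.13 in KO IRI. Its differences were 1.54 ± 0.48 in WT (adjusted p = 0.0632, and 0.0289 without WT IRI replicate 1) and 0.56 ± 0.48 in KO (adjusted p = 0.556). Fn1 (fibronectin) lay at 1.09, 1.54 and 0.87 in WT sham, 0.95, 1.71 and 1.75 in WT IRI, 1.55, 1.81 and 2.12 in KO sham and 1.08, 1.26 and 1.81 in KO IRI. It differed by 0.30 ± 0.28 in WT and -0.44 ± 0.28 in KO (adjusted p = 0.521 and 0.407). With the mean of its 4 kept probes, its KO response minus its WT response was -1.13 (adjusted p = 0.422). That value is further below 0 than with the brightest probe alone. Fbn1 and Fbn2, the fibrillins of elastic microfibrils, passed in neither genotype.

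Several WT calls lay near the threshold. Of the 11 in WT, those of Col4a1, Col4a2 and Lama3 held with any 1 of the 12 arrays left out. The call of Lama5 was lost for 9 of the 12 (differences 0.58 to 1.02, adjusted p up to 0.123) and those of Lamc1 and Col13a1 for 10, including arrays of the KO groups, which enter only through the shared spread. Postn was lost for 5 arrays, namely WT sham replicates 2 and 3, WT IRI replicates 2 and 3 and KO sham replicate 3 (1.16 to 1.46, adjusted p 0.0519 to 0.115). Col12a1 was lost for 3 arrays, WT sham replicates 2 and 3 and WT IRI replicate 3 (0.76 to 0.86, adjusted p 0.0545 to 0.0744), Col8a1 without WT sham replicate 1 or 2 (1.00 and 1.03, adjusted p 0.0671 and 0.0622), and Col22a1 without any 1 of the WT sham arrays or the third of WT IRI (-1.25 to -1.07, adjusted p 0.0527 to 0.0711). In KO, Col12a1 was lost without KO sham replicate 1 or KO IRI replicate 3 (0.99 and 0.92, adjusted p = 0.0686 and 0.0554) and Col13a1 without KO sham replicate 2 (2.26, adjusted p = 0.0538). With no filter on dim probes, and so more genes tested, Lama5, Lamc1 and Col13a1 were lost in WT (adjusted p = 0.0621, 0.0779 and 0.0642), and Lamc1 was lost with the mean of its probes (adjusted p = 0.108). With only the 6 arrays of WT in the fit, only Lama3 and Col22a1 passed in WT, and with only the 6 of KO, 10 genes passed in KO. Of all 25947 genes tested, 417 passed in that WT fit and 2442 in that KO fit.

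Between the genotypes, 5 of the 57 genes differed in sham kidneys, 4 higher and 1 lower in KO, against 8.85% of all genes tested, 5.12% higher and 3.73% lower. The groups did not overlap for 20 genes, 17 higher and 3 lower, against 42.7% of all genes, 30.6% higher and 12.2% lower. By quantile normalization 828 of all genes were higher and 1093 lower, beside 1329 and 968 here. The median difference was 0.22 over the 57 genes and 0.12 over all genes tested. Col4a3, of the glomerular type IV collagen, was higher in KO sham than in WT sham by 0.61 ± 0.16 (adjusted p = 0.043), and Col4a4, Col4a5 and Col4a6 by 0.38 ± 0.17, 0.45 ± 0.33 and 0.21 ± 0.26, which did not pass. Lama3 was lower in KO sham by 0.83 ± 0.16 (adjusted p = 0.0141), and its other kept probe by 1.21. Col8a1 was higher by 0.98 ± 0.22 (adjusted p = 0.0251). Col17a1, a transmembrane collagen of epithelial anchoring, lay at -4.37, -4.31 and -4.44 in WT sham and -3.64, -3.92 and -3.53 in KO sham, higher by 0.68 ± 0.15 (adjusted p = 0.0251), but its other kept probe differed by -1.23, and the call was lost with quantile normalization (adjusted p = 0.0624). Col11a2, a minor fibrillar chain and the highest of its class, lay at -6.83, -6.47 and -6.14 in WT sham, where no array was well above background, and at -5.04, -5.28 and -5.05 in KO sham. It was higher in KO sham by 1.36 (adjusted p = 0.00618), a size that rests on WT signals near background. With each WT sham signal set no lower than the lowest signal counted as above background, the KO mean was 1.85-fold higher. That value takes no account of the spread between arrays and was not tested. By normexp the difference of Col11a2 was 0.41 and did not pass (adjusted p = 0.0760). Col4a3 was lost with the percentile taken over probes above background on all arrays (adjusted p = 0.0584). With 1 array left out, Col11a2 held each time, Lama3 was lost without WT sham replicate 1 or KO sham replicate 3 (-0.79 and -0.80), and Col8a1 without WT sham replicate 1 or 2 or KO sham replicate 1 or 3 (0.89 to 0.94). Col17a1 was lost without any WT sham array or KO sham replicate 1 or 3 (0.60 to 0.71), and Col4a3 without 9 of the 12 arrays (0.53 to 0.71). The lowest fibrillar value was that of Col5a2 at -0.93 ± 0.35 and the highest basement membrane value that of Lama4, a laminin chain of vessels, at 0.89 ± 0.35, and neither passed. Without WT IRI replicate 1, 12 of the 57 genes passed, beside 4405 of all 25947 genes tested. That array enters this comparison only through the shared spread.

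In the injured kidneys 0 of the 57 genes differed between KO and WT in limma's test, against 1.93% of all genes tested, 0.910% higher and 1.02% lower (236 and 265 genes, beside 66 and 263 by normexp), and 13 had an unadjusted p below 0.05, as did 21.7% of all genes. The groups did not overlap for 13 genes, 9 higher and 4 lower, against 21.8% of all genes, 12.3% higher and 9.45% lower. With array weights 3 passed, beside 7.84% of all genes. Values near the threshold were those of Lama1, the laminin alpha chain of developing and tubular basement membranes, at 1.05 ± 0.28 higher in KO (adjusted p = 0.0891), and Col4a1 at -0.61 ± 0.17 (adjusted p = 0.0984). The groups did not overlap for either gene. Fibrillar differences ran from -1.05 ± 0.73 for Col2a1, the cartilage collagen, to 0.85 ± 0.74 for Col27a1. Col2a1 was well above background on only 4 of the 12 arrays. Lama1 was at 1.06 on WT IRI replicate 1 and at 2.38 and 2.11 on the other WT IRI arrays. The test of whether the response to IRI differed between genotypes called 0 of the 57 genes, against 0.0694% of all genes, 0.0193% higher and 0.0501% lower, with 4 at an unadjusted p below 0.05 (9.77% of all genes) and 2 passing with array weights (5.21% of all genes). The 95% intervals of this test were wide for the fibrillar genes: that of Col1a1 ran from -1.64 to 1.95 and that of Col3a1 from -2.46 to 1.02, beside -0.48 to 0.31 for Col4a2.

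Other genes of the matrix were counted by list, beside the 12.0% of all genes that passed in WT and the 6.16% in KO. Among 23 genes of collagen folding and crosslinking, 2 rose in WT and 2 in KO (8.70% in each) and none fell. In WT these were Fkbp10, a collagen chaperone (1.15 ± 0.27, adjusted p = 0.0245), and Bmp1, which cleaves procollagen (0.71 ± 0.12, adjusted p = 0.00792). In KO they were P4ha2, a prolyl hydroxylase (0.82 ± 0.21, adjusted p = 0.0433), and Colgalt1, which glycosylates collagen (0.71 ± 0.13, adjusted p = 0.0144). Among 19 matrix receptors, 4 rose in WT (21.1%) and 2 in KO (10.5%), and none fell. Their median difference was 0.34 in WT and 0.18 in KO. The laminin-binding integrin chain Itga7 rose by 1.16 ± 0.17 in WT and 1.12 ± 0.17 in KO (adjusted p = 0.005 and 0.00683), and the fibronectin-binding chain Itga5 by 0.98 ± 0.18 and 0.78 ± 0.18 (adjusted p = 0.0108 and 0.033). Itga3, another laminin-binding chain, rose by 0.81 ± 0.15 in WT (adjusted p = 0.0102). Among 18 proteoglycans and adapter proteins, 2 rose in each genotype (11.1%) and none fell. Ccn1 and Thbs2, both secreted proteins that bind cells to matrix, rose in both genotypes, Ccn1 by 1.67 ± 0.34 and 1.85 ± 0.34 and Thbs2 by 1.15 ± 0.31 and 1.22 ± 0.31. In sham kidneys Ccn1 was lower in KO than in WT by 1.41 ± 0.34 (adjusted p = 0.0313), and so was the hyaluronan receptor Cd44 by 2.09 ± 0.55 (adjusted p = 0.0445).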

How the data were processed

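RNA of 12 kidneys was hybridised to one-colour Agilent arrays. Per the file headers, the deposited scanner output was made with Feature Extraction 10.7.1.1 from Agilent and gives the intensity of each spot, background-corrected and not scaled between arrays. The authors also deposited normalized log2 values, for which the submitters' processing notes name limma. They have 1 median for every array and no stated scale or centring, and were used as an alternative only. On each array they lay close to the quantile-normalized values (median absolute difference about 0.04), so these 2 alternatives are nearly the same. Control and outlier spots were left out, spots of a probe averaged, and log2 signals reduced by the 75th percentile of the array. The fit over all genes used lmFit and eBayes of limma 3.58.1 under R 4.3.3 (two-sided, 8 residual degrees of freedom), and the fit was tested on simulated data. The number of arrays limits the precision. Probe positions are mm9, and sequences come from RefSeq (GRCm38.p6), whose gene table holds all 57 genes and whose promoter table holds 40. The members, classes and lists were chosen with earlier results of these data known. Named were 13 genes in any case, every member past the threshold up to the 8 largest each way, the highest and lowest of the compared classes, and up to 3 genes each way of the other lists; further genes were named after their values were seen. The alternatives were another background correction, scaling, filter, choice of probe or fit, a replicate block and each array left out.
The spread within groups without WT IRI replicate 1 was added after the data were seen. Values of 1 gene are counted in the classes but not reported here.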

Additional observations from a re-analysis of the deposited data

How the results depend on the processing

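The member counts depend most on how the spread is estimated. In WT IRI against WT sham 2 members passed with only the arrays compared and 23 with array weights, beside 417 and 8922 of all 25947 genes. With 1 array left out 4 to 14 members passed. In KO IRI against KO sham the count was 7 with normexp background correction and 2 with the mean of all kept probes (Col12a1 and Col13a1 lost), beside 2101 and 1461 of all genes. It was 10 with only the arrays compared and 18 with array weights, beside 2442 and 5756 of all genes, and 3 to 9 with 1 array left out. In KO sham against WT sham it was 12 with only the arrays compared and 18 with array weights, beside 4042 and 9669 of all genes, and 1 to 12 with 1 array left out. In KO IRI against WT IRI it was 3 with array weights and 0 to 2 with 1 array left out, and in the interaction 2 and 0. The fibrillar minus basement membrane median moved in KO IRI against KO sham, to 0.49 with genes above background on all 12 arrays and 0.38 with the mean of all kept probes. With 1 array left out it ran from 0.13 to 1.09 in WT, from -0.20 to 0.43 in KO, from -0.38 to 0.07 in KO sham against WT sham, from -0.33 to 0.27 in KO IRI against WT IRI and from -0.34 to 0.41 in the interaction. Col17a1 in KO sham against WT sham reversed to -0.27 with the mean of all kept probes; the cause was not tested beyond its disagreeing probes. Counts over all genes ran from 417 to 8922 (3109 as reported), 454 to 5756 (1598), 649 to 9669 (2297), 35 to 2034 (501) and 4 to 1353 (18). Replicate numbers gave no sign of pairing: deviations of same-numbered arrays between groups correlated at -0.27 to 0.15. Among differently numbered arrays, KO sham 1 with KO IRI 2 reached 0.27 and WT sham 3 with WT IRI 2 -0.26. With 3 arrays per group these correlations cannot exclude a pairing. With the replicate block 9, 4, 4, 0 and 0 members passed in the 5 comparisons, and Lamc1, Postn and Col4a3 lost their calls. The slide as a block gives no value, because each slide holds 1 genotype. Levels of dim probes, such as Col2a1, Col6a5, Col11a2, Col15a1, Col19a1, Col22a1, Col24a1 and Col25a1, rest on signals near background.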
